A study of Mus musculus with 5 samples.

Results

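C-type lectin receptors and collectins were compared between the livers of CSF1-Fc treated and control mice. The members were every gene whose symbol began with Clec followed by a number and a letter, with Cd209 or with Colec, together with *Mrc1* and *Mrc2*. The rule found 44 genes of the 18820 that had a row with 1 gene symbol on the array, and it used no expression value. Classes were set from general knowledge of where each gene is expressed, with earlier results of these data known. They were 14 macrophage, 5 dendritic, 4 endothelial and 21 other members. Among neighbouring genes, *Clec4a2* was placed with the macrophage members, and *Clec4a4*, *Clec4b1* and *Clec4b2* with the dendritic members. The arrays came from adult C57BL/6 mice, 2 injected with phosphate-buffered saline (PBS) and 3 with CSF1-Fc, given under the skin on 4 successive days, with livers taken on day 5. CSF1-Fc is the active part of pig macrophage colony-stimulating factor joined to the Fc part of a pig antibody, and no analysed group received the Fc part alone. Each array held the RNA of a whole piece of liver from 1 mouse, so a change in the number of cells of a type and a change in RNA per cell cannot be told apart in any value below.

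C-type lectin receptors are membrane proteins that bind sugars, or in some cases proteins and lipids, through a shared fold. Many sit on macrophages and dendritic cells, where those with an activating tail or an adaptor such as Fcer1g or Tyrobp signal through the kinase Syk, and those with an inhibitory tail recruit phosphatases. Collectins pair the same fold with a collagen-like stalk, and several circulate after secretion by the liver and start the lectin pathway of complement. In liver, resident macrophages (Kupffer cells) and the sinusoidal endothelium both use such receptors to clear sugar-bearing particles from portal blood.

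Several members lie side by side in the genome. In the gene order of the mouse assembly GRCm38.p6, the stretches called here the dectin-2, dectin-1 and Cd209 clusters hold members only. Their ends were set at members (*Clec4a1* to *Clec4e*, *Clec12a* to *Clec7a* and *Clec4g* to *Cd209g*), so genes beyond those ends are not counted. RefSeq start sites matched 35 of the 44 members. A pair from the Cd209 cluster and a pair from the dectin-2 cluster are shown, each as the 250 bases before the start site on the strand of the gene, since in the first pair only *Cd209f* passed the test described below and in the second both genes did. In the *Cd209f* (chr8:4105765-4106014, minus strand) and *Cd209g* (chr8:4134486-4134735, plus strand) windows, capitals mark bases that differ from or are absent in the partner.
Cd209f: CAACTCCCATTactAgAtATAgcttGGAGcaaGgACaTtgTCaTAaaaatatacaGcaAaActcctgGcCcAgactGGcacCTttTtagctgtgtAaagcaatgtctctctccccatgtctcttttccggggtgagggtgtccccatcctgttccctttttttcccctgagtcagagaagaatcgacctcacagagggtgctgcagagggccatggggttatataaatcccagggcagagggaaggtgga
Cd209g: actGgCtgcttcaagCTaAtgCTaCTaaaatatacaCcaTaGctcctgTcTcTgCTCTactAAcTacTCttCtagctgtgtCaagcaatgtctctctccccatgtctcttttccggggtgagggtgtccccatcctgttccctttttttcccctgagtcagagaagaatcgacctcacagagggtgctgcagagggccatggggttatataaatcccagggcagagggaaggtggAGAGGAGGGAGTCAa

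Of 250 bases, 210 were identical in the alignment of these 2 windows (84.0%), with a longest shared run of 154 bases, whereas the median over all 595 pairs of member windows was 49.2% and the highest was 88.0%. The shared run held the AP-1 word TGANTCA in both. Next to each other in the dectin-2 cluster, *Clec4a1* (chr6:122921598-122921847, plus strand) and *Clec4a3* (chr6:122952265-122952514, plus strand) shared 122 bases (48.8%). Capitals here mark the core word AGGAAG of the myeloid factor PU.1, on either strand.
Clec4a1: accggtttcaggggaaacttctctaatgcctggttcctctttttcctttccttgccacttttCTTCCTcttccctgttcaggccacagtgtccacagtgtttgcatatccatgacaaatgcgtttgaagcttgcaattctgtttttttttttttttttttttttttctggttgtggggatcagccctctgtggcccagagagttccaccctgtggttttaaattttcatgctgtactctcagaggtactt
Clec4a3: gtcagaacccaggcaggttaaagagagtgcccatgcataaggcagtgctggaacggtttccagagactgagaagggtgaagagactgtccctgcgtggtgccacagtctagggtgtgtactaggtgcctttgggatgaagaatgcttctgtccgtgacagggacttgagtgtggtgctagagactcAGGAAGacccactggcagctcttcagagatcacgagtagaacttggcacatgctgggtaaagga

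The PU.1 word was found on either strand in 17 of the 35 member windows (48.6%) and in 29.2% of 27025 mouse promoter windows of the same length. Among members with a window it was in 4 of the 12 that were higher after CSF1-Fc and in 13 of the other 23. The AP-1 word TGANTCA was in 7 member windows against 6.87% of all promoters and the MAF word TGCTGA in 10 against 15.8%. These words can overlap one another. A match describes the letters of a window and is no binding site.

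After CSF1-Fc, 14 of the 44 members were higher and 2 were lower than in PBS livers at an adjusted p under 0.05 from limma, the test behind every adjusted p given here, which was adjusted over all 35556 rows of the array. Of all 18820 genes, 8.34% were called higher and 3.95% lower. Macrophage members made up 11 of the 14 that rose. The others were the dendritic member *Cd209a* and, among other members, *Clec1b* and *Clec2i*, while the endothelial member *Clec4g* and the collectin *Colec11* fell. All 3 CSF1-Fc arrays were above both PBS arrays for 19 of the 44 members, against 3426 of the 18820 genes (18.2%). They were below both for 8 of the 44, against 5508 of the 18820 genes (29.3%). The median log2 fold change over the members was 0.11, beside -0.08 over all genes. No filter on level was applied, and 21 members, *Clec10a* among them, were under a mean log2 intensity of 5 in both groups.

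**Figure D1:**
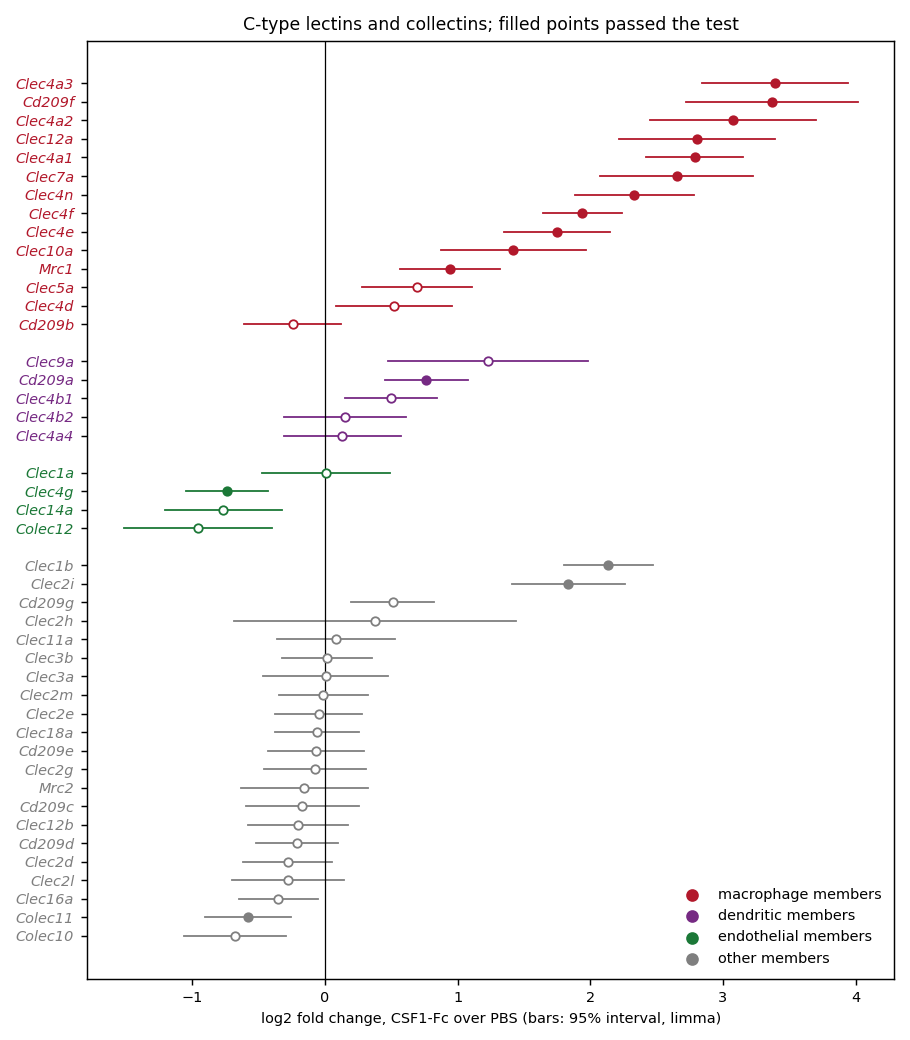
Log2 fold change (CSF1-Fc over PBS, x axis) of each of the 44 members, ordered by class and by size, with 95% intervals from limma; filled points passed the test. The macrophage members lie mostly to the right, with a median of 2.14, and 3 of the 4 endothelial members lie to the left of 0.

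Transcripts of 27 secreted liver proteins had summed linear intensities of 163985 and 165136 with PBS against 149119, 141551 and 159305 with CSF1-Fc, so that every treated liver was lower. None of them was called, and 16 of the 27 were below the PBS range in every CSF1-Fc liver, against 29.3% of all genes. Array medians lay between 4.96 and 5.05 on the log2 scale, and correlations of log2 values were 0.983 to 0.991 within groups and 0.960 to 0.973 across them. Kupffer cell markers rose in 7 of 7 genes (median 2.29), with *Timd4* at 2.72, *Cd163* at 2.60, *Cd5l* at 2.58 and *Folr2* at 2.29, and their summed linear intensity ranged from 3773 to 4564 with PBS and from 16862 to 17477 with CSF1-Fc. Macrophage markers rose in 10 of 10 (median 1.93), led by *Cd68* at 2.87, *Cx3cr1* at 2.63, *Adgre1* at 2.62 and *Itgam* at 2.52, with sums of 3463 to 3595 against 14071 to 14860. All 4 measured monocyte markers rose (median 3.04), *Plac8* by 4.14, *Ccr2* by 3.58, *F13a1* by 2.49 and *Chil3* by 2.04. Of 12 neutrophil markers 10 rose (median 2.58), with the largest changes in *Retnlg* at 4.17, *S100a8* at 3.97, *Mmp9* at 3.30 and *S100a9* at 3.22. The sums of the monocyte list were 119 to 148 and 1610 to 2053, and those of the neutrophil list 240 to 345 and 2015 to 2444. The part of each cell type in the changes of the members was not tested.

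The inhibitory receptor *Clec4a2* (DCIR) and its relatives *Clec4a1* and *Clec4a3* were among the members with the largest rises. *Clec4a3* was at log2 intensities of 6.55 and 5.90 with PBS against 9.82, 9.61 and 9.43 with CSF1-Fc, a log2 difference of 3.39 (SE, standard error, 0.23, adjusted p = 0.000467), or 10.5-fold. *Clec4a2* was at 4.27 and 4.02 against 7.11, 7.70 and 6.86, a log2 difference of 3.07 (SE 0.26, adjusted p = 0.000968), and it was dim in PBS livers. *Clec4a1* was at 6.35 and 6.41 against 9.36, 9.11 and 9.01, a log2 difference of 2.79 (SE 0.15, adjusted p = 0.000378). On the log2(value + 16) scale the difference of *Clec4a2* was 2.30. For all 3 genes the CSF1-Fc livers stood clear of the PBS livers, and for *Clec4a1* the PBS livers differed by only 0.06. *Clec12a* (MICL), an inhibitory myeloid receptor for uric acid crystals, was at 7.36 and 6.54 against 9.79, 9.76 and 9.72, a log2 difference of 2.81 (SE 0.24, adjusted p = 0.00106). Its groups did not overlap, and the spread was larger among the PBS livers than among the treated ones. The Clec4a genes are close relatives and the probe sequences were not analysed here, so signal shared between them was not tested.

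Among activating receptors, *Clec7a*, *Clec4n* and *Clec4e* rose, and *Clec4d* and *Clec5a* did not pass the test. *Clec7a* (dectin-1), the receptor for fungal beta-glucan, was at 6.64 and 5.88 with PBS against 8.94, 9.04 and 8.76 after CSF1-Fc, a log2 difference of 2.65 (SE 0.24, adjusted p = 0.00122). *Clec4n* (dectin-2), which binds fungal mannans, was at 5.89 and 5.61 against 8.13, 8.29 and 7.82, a log2 difference of 2.33 (SE 0.19, adjusted p = 0.000771). *Clec4e* (Mincle), the receptor for mycobacterial cord factor, was at 3.39 and 3.42 against 5.13, 4.94 and 5.39, a log2 difference of 1.75 (SE 0.17, adjusted p = 0.00154). None of these 3 receptors overlapped between groups, but *Clec4e* was dim in PBS livers, and on the log2(value + 16) scale its difference was 0.96. *Clec4d* (MCL), the partner of Mincle, had a log2 difference of 0.52 (95% interval 0.08 to 0.96, adjusted p = 0.147) and did not pass, although its 3 CSF1-Fc values lay above both PBS values. *Clec5a* (MDL-1), which signals through Tyrobp, had 0.69 (95% interval 0.28 to 1.11, adjusted p = 0.0619), also without overlap.

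Among receptors typical of Kupffer cells and tissue macrophages, *Cd209f*, a relative of DC-SIGN, was at 5.70 and 4.84 with PBS against 8.73, 8.75 and 8.42 with CSF1-Fc, a log2 difference of 3.37 (SE 0.27, adjusted p = 0.000773). *Clec4f*, the Kupffer cell receptor for galactose-type sugars, was at 9.99 and 9.91 against 11.96, 11.83 and 11.88, a log2 difference of 1.94 (SE 0.12, adjusted p = 0.00045), or 3.84-fold. The standard error of *Clec4f* was the smallest among the 16 called members and its groups were well separated, whereas the PBS livers differed by 0.86 in *Cd209f*. *Mrc1*, the mannose receptor CD206 of macrophages and of sinusoidal endothelium, was at 8.53 and 8.67 against 9.50, 9.38 and 9.74, a log2 difference of 0.94 (SE 0.16, adjusted p = 0.0155), or 1.92-fold. *Clec10a* (MGL1), a galactose-type lectin, was dim at 3.37 and 3.29 against 5.04, 4.88 and 4.33, with a log2 difference of 1.42 (SE 0.23, adjusted p = 0.0133), or 0.73 on the log2(value + 16) scale. Both were separated between the groups, and both calls were lost without PBS replicate 1 (adjusted p = 0.12 for *Mrc1* and 0.0794 for *Clec10a*) and without PBS replicate 2 (0.0928 and 0.104). The *Mrc1* call was also lost without CSF1-Fc replicate 1 (adjusted p = 0.0658). The remaining macrophage member, *Cd209b* (SIGN-R1 of marginal zone macrophages of the spleen), had -0.24 (95% interval -0.61 to 0.12, adjusted p = 0.406), and its groups overlapped.

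PBS replicate 1 was above PBS replicate 2 for 10 of the 14 members that rose, with a median difference of 0.22, and for 22 of all 44. It was also the higher of the 2 for 5 of 7 Kupffer cell markers (median difference 0.29), 9 of 12 neutrophil markers (0.29), 3 of 4 monocyte markers (0.27) and 3 of 10 macrophage markers (-0.12). The gap reached 1.64 in *S100a8*, 1.47 in *Prtn3* and 1.03 in *Retnlg*. The part of these differences in the changes of the members was not tested.

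**Figure D2:**
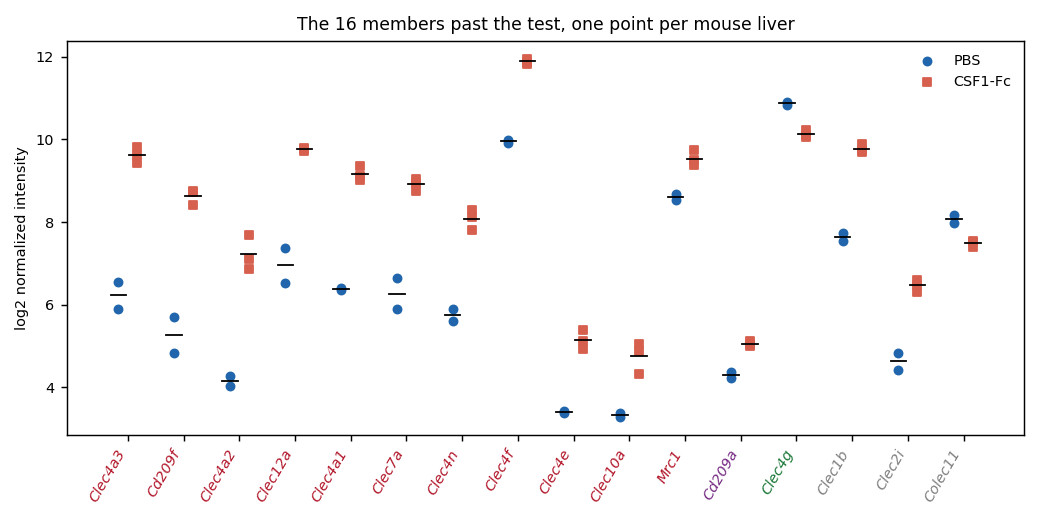
Log2 normalized intensity (y axis) of the 16 members that passed the test, ordered by class and by fold change, with 1 point per mouse liver (circles PBS, 2 mice; squares CSF1-Fc, 3 mice) and a line at each group mean. No member shown overlaps between the groups; PBS points lie farthest apart for *Cd209f*, by 0.86, and *Clec12a*, by 0.83.

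Of the 5 dendritic members only *Cd209a*, usually named the mouse DC-SIGN, passed the test. It was at 4.22 and 4.37 with PBS against 5.13, 5.05 and 5.00 after CSF1-Fc, a log2 difference of 0.76 (SE 0.13, adjusted p = 0.0163). *Cd209a* was dim in PBS livers, and on the log2(value + 16) scale its difference was 0.47. The groups did not overlap, but the call was lost when PBS replicate 1 (adjusted p = 0.136), PBS replicate 2 (0.0941) or CSF1-Fc replicate 1 (0.0815) was left out. *Clec9a* (DNGR-1), by which cross-presenting dendritic cells sense dead cells, was at 5.97 and 5.88 against 7.21, 6.57 and 7.68, a log2 difference of 1.23 (95% interval 0.48 to 1.98, adjusted p = 0.065). It was higher in every CSF1-Fc liver, but those livers spread over more than the PBS livers did, with a standard deviation of 0.56 against 0.07, and the call did not pass. It passed with arrays centred on their median (adjusted p = 0.0416) or on secreted liver proteins (0.0144), with array weights (0.00666), among rows of at least 5 (0.0346) or with 1 symbol (0.0135), and without CSF1-Fc replicate 2 (0.00882), and it did not pass in the other 10 settings.

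The DCAR genes and *Clec4a4* were dim. *Clec4b1* was at 3.11 and 3.37 with PBS against 3.75, 3.64 and 3.81 with CSF1-Fc (log2 fold change 0.50, 95% interval 0.15 to 0.84, adjusted p = 0.0928). *Clec4b2* was at 3.46 and 3.66 against 3.70, 3.99 and 3.44 (0.15, 95% interval -0.31 to 0.61, adjusted p = 0.709). *Clec4a4* (DCIR2) was at 2.63 and 2.98 against 2.89, 2.75 and 3.16 (0.13, 95% interval -0.31 to 0.57, adjusted p = 0.738), and its sign turned without PBS replicate 1. Groups overlapped for the last 2 genes and not for *Clec4b1*. Beside these, 3 of 10 conventional dendritic cell markers rose, against 8.34% of all genes: *Irf8* by 2.26, *Batf3* by 1.39 and *H2-Ob* by 1.23. *Flt3*, *Zbtb46* and *Xcr1*, which define conventional dendritic cells or their cross-presenting branch, were at 0.51, -0.15 and 0.15 and did not pass. The summed linear intensity of that list ranged from 357 to 388 with PBS and from 960 to 1084 with CSF1-Fc. Bright genes weigh most in such a sum, and *Irf8* was the brightest, at a mean log2 of 7.11 with PBS and 9.37 with CSF1-Fc. Of 6 plasmacytoid markers only *Irf7* rose, by 1.94.

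Of the 4 endothelial members 1 fell and none rose past the test, with a median log2 fold change of -0.75. *Clec4g* (LSECtin), a receptor of liver sinusoidal endothelium, was at 10.83 and 10.91 with PBS against 10.23, 10.11 and 10.07 with CSF1-Fc, a log2 difference of -0.74 (SE 0.13, adjusted p = 0.0176), so that PBS livers were 1.67-fold higher. This was the only endothelial member called, and the groups did not overlap. The call was lost when PBS replicate 1 (adjusted p = 0.108), PBS replicate 2 (0.16) or CSF1-Fc replicate 1 (0.0598) was left out, and a second, dim row of the gene had -0.04 (adjusted p = 0.918). *Colec12* (CL-P1), a scavenger receptor of vascular endothelium, was at 9.02 and 9.06 against 8.14, 7.67 and 8.44 (log2 fold change -0.96, 95% interval -1.52 to -0.40, adjusted p = 0.0567). *Clec14a*, an endothelial membrane protein, was at 6.38 and 5.95 against 5.28, 5.33 and 5.58 (-0.77, 95% interval -1.21 to -0.33, adjusted p = 0.0532). Both were below the PBS livers in every CSF1-Fc liver, as were 29.3% of all genes, and missed the threshold narrowly. Each passed when arrays were quantile normalized or centred on their median (adjusted p of 0.0481 and 0.0390 for *Colec12*, 0.0271 and 0.0440 for *Clec14a*). With arrays centred on secreted liver proteins *Colec12* passed (adjusted p = 0.0437), *Clec14a* did not (0.0741), and the call of *Clec4g* was lost (-0.62, adjusted p = 0.0757). *Clec1a* was at 5.79 and 5.46 against 5.56, 5.40 and 5.93 (0.01, 95% interval -0.48 to 0.49, adjusted p = 0.992), with overlapping groups and a sign that turned under quantile normalization.

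The wider endothelial marker list did not show 1 direction. Of 15 markers *Cdh5*, a junction protein of endothelium, rose by 1.38 (adjusted p = 0.0087) and none fell past the test. Their median was -0.28, and 8 of the 15 were below the PBS range in every CSF1-Fc liver, against 29.3% of all genes. The lowest values were those of the receptors *Kdr*, at -0.95 (adjusted p = 0.0538), and *Tek*, at -0.89 (adjusted p = 0.0505). The summed linear intensity of the list ranged from 3902 to 4244 with PBS and from 4066 to 4954 with CSF1-Fc. Their part in the values of the endothelial members was not tested.

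Of the 21 other members 2 rose (9.52%) and 1 fell (4.76%), near the 8.34% and 3.95% of all genes. *Clec1b* (CLEC-2), the podoplanin receptor of platelets that Kupffer cells also carry, was at 7.74 and 7.55 with PBS against 9.70, 9.90 and 9.73 with CSF1-Fc, a log2 difference of 2.13 (SE 0.14, adjusted p = 0.00045), or 4.39-fold. The groups were far apart and the spread within each was small. Of 7 platelet and megakaryocyte markers *Pf4* rose by 3.60 and *Ppbp* by 1.46, while *Itga2b*, *Gp5* and *Gp9*, which encode platelet receptors, were at -0.37, 0.11 and 0.10 and did not pass. The sums of that list were 282 to 319 and 634 to 926, and their part in the change of *Clec1b* was not tested. *Pdpn*, which encodes podoplanin, had a log2 difference of 0.10 (adjusted p = 0.755).

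The Clec2 genes encode ligands of natural killer cell receptors. *Clec2i* (Clr-g) was at 4.84 and 4.42 with PBS against 6.49, 6.31 and 6.60 after CSF1-Fc, a log2 difference of 1.84 (SE 0.18, adjusted p = 0.00161), without overlap. *Klrb1f*, which encodes a natural killer receptor of the family that binds these ligands, rose by 0.66 (adjusted p = 0.0226), and *Klrb1c* and *Klrb1b* of the same family had 0.53 (adjusted p = 0.0637) and 0.36 (0.175) and did not pass. *Clec2d* (Clr-b) was at 10.95 and 10.86 against 10.59, 10.78 and 10.50, with a log2 difference of -0.28 (adjusted p = 0.294). *Clec2h* (Clr-f) was at 7.61 and 7.54 against 7.06, 8.09 and 8.69 (0.38, 95% interval -0.69 to 1.44, adjusted p = 0.68), so that the treated livers lay on both sides of the controls. Of 8 natural killer cell markers *Klrk1* rose by 2.48 and *Gzmb* by 2.26, and *Ncr1*, a defining marker, had 0.43 (adjusted p = 0.161).

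The soluble collectins among the members, *Colec10* and *Colec11*, were lower in every CSF1-Fc liver, as were 29.3% of all genes. Of the pair only *Colec11* passed the test. *Colec11* (CL-K1) was at 8.16 and 7.97 with PBS against 7.39, 7.54 and 7.52 with CSF1-Fc, a log2 difference of -0.58 (SE 0.13, adjusted p = 0.0493). *Colec10* (CL-L1) was at 8.20 and 8.35 against 7.68, 7.38 and 7.74 (-0.68, 95% interval -1.06 to -0.29, adjusted p = 0.0513). The call of *Colec11* held in 6 of the 16 other settings, with adjusted p-values up to 0.271 over all settings. It was lost with any of the 5 mice left out, either centring, trend and robust moderation, no moderation or the replicate block. *Clec16a*, an autophagy regulator with no lectin domain, was at 8.14 and 8.18 against 7.80, 7.75 and 7.88 (-0.35, adjusted p = 0.15). The remaining 14 other members were under a mean log2 of 5 in both groups, with changes from -0.28 to 0.51 and none called. The nearest to the threshold was *Cd209g*, at 0.51 (95% interval 0.20 to 0.82, adjusted p = 0.0668).

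Within clusters, called and uncalled genes lay side by side. Of all genes, 8.34% were called higher and 3.95% lower. The uncalled genes of the dectin-2 and Cd209 clusters were all under a mean log2 of 5 in both groups. The dectin-2 cluster holds 9 adjacent protein-coding genes on chromosome 6, all of them members, of which 5 rose and 4 did not pass. In order, *Clec4a1* and *Clec4a3* rose by 2.79 and 3.39, *Clec4a4* and *Clec4b1* were at 0.13 and 0.50, *Clec4a2* rose by 3.07, *Clec4b2* was at 0.15, *Clec4n* rose by 2.33, *Clec4d* was at 0.52 and *Clec4e* rose by 1.75. In the dectin-1 cluster 3 of 6 rose, and in the Cd209 cluster on chromosome 8 2 of 8 rose and 1 fell, so that the stretch begins with *Clec4g* at -0.74 and ends with *Cd209f* at 3.37 and *Cd209g* at 0.51. The last 2 genes are the pair whose windows before the start site were 84.0% identical, and the difference between their changes was not tested. The Clec2 stretch holds 13 genes, 6 of them members, of which *Clec2i* rose.

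**Figure D3:**
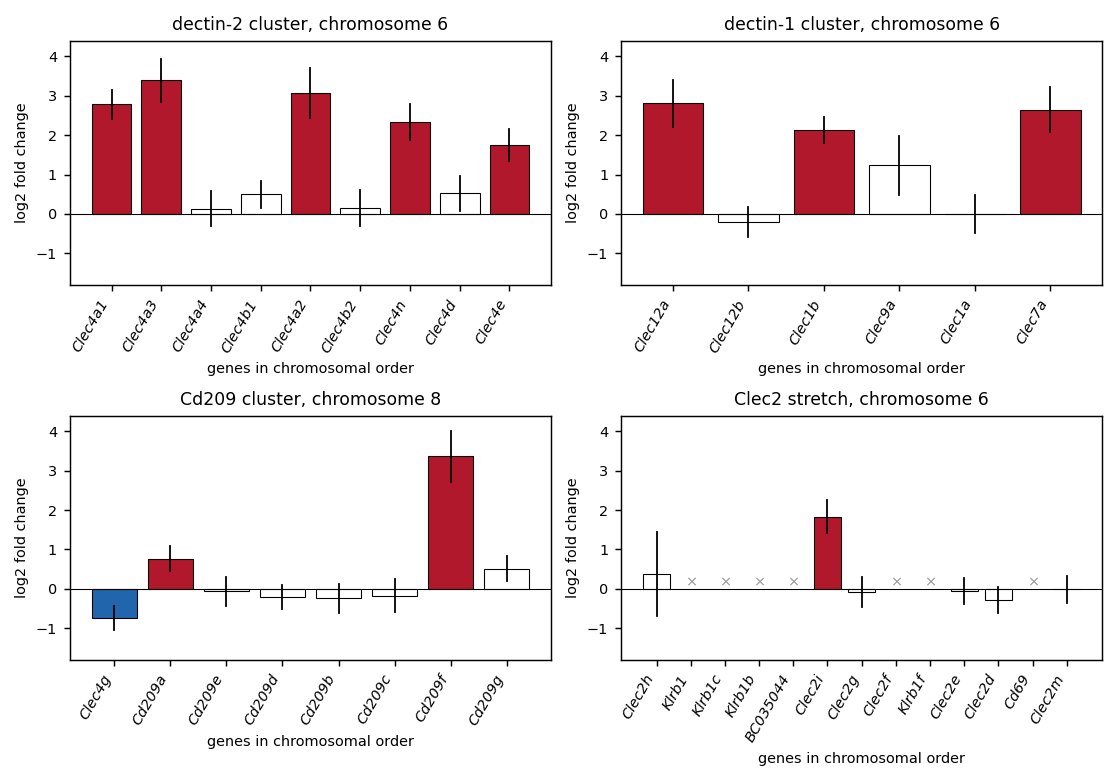
Log2 fold change (CSF1-Fc over PBS, y axis) of the members in 4 gene clusters, in chromosomal order of GRCm38.p6 (x axis, not to distance), with 95% intervals from limma; red bars were called higher, blue lower and white not called, and a cross marks a gene that is no member or has no row here. In the dectin-2 cluster 5 of 9 neighbours were called higher, with uncalled genes between them.

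The signalling chain downstream of these receptors rose in 12 of 21 measured genes (median log2 fold change 1.37), and none fell, beside 8.34% and 3.95% of all genes. The largest changes were those of the exchange factor *Vav1* at 2.88, the adaptors *Tyrobp* at 2.80 and *Fcer1g* at 2.75, and the phospholipase *Plcg2* at 2.74. *Card9*, which joins Syk to NF-kB, rose by 1.37, and its partners *Bcl10* and *Malt1* had 0.46 and 0.05 and did not pass. *Syk* rose by 2.08 and the phosphatases *Inpp5d* and *Ptpn6*, which serve inhibitory receptors, by 2.62 and 1.67. Many of these genes are expressed by most myeloid cells. Their summed linear intensity ranged from 3170 to 3607 with PBS and from 11288 to 13521 with CSF1-Fc.

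Of 6 measured genes of the lectin pathway of complement, the macrophage ficolin *Fcna* rose by 2.12, and the mannose-binding lectin *Mbl1* and the complement component *C2* fell by 0.86 and 0.85 on the log2 scale. *Mbl2*, which like *Mbl1* encodes a soluble liver collectin, was above the PBS range in every CSF1-Fc liver with 0.34 (adjusted p = 0.165), and the protease gene *Masp1* had -0.76, and neither passed. The 27 secreted liver proteins had a median of -0.15. Among 12 ligands and secreted partners 4 rose, namely the galectin *Lgals3* by 3.24, the protease *Plau* by 2.65, and *Il10* and *Klrb1f* (adjusted p of 0.0227 and 0.0226). Genes with a C-type lectin domain but another kind of symbol numbered 25. Of these 3 rose and 3 fell (12% each), beside 8.34% and 3.95% of all genes. *Cd72*, an inhibitory receptor known from B cells, rose by 3.25, *Cd207* (langerin) by 1.99 and *Cd93* by 1.44. Of 5 B cell markers 3 rose, *Cd79b* by 1.89, while *Pax5* and *Cd22* had 0.08 and 0.43 (adjusted p of 0.771 and 0.305) and did not pass. The part of B cells in the change of *Cd72* was not tested. *Mbl1* and the asialoglycoprotein receptor subunit *Asgr2* of hepatocytes fell by 0.86 and 0.82, and its partner *Asgr1* had -0.33 (adjusted p = 0.183). *Sftpa1* fell by 0.67. The stellate cell list had *Rgs5* at -0.83 as the only call of 13 genes.

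**Figure D4:**
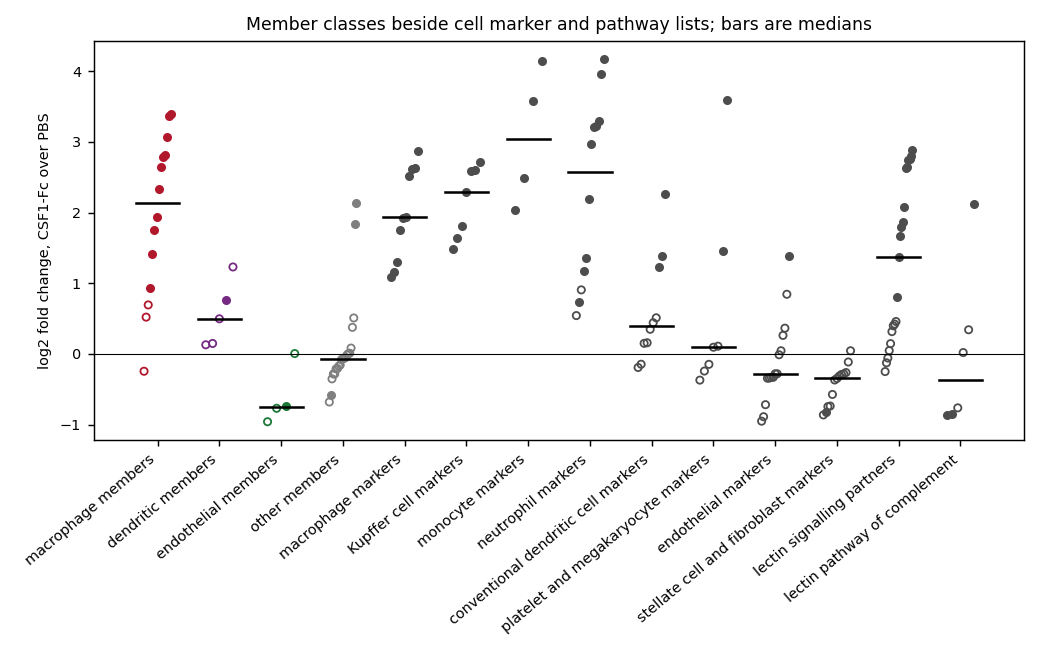
Log2 fold change (CSF1-Fc over PBS, y axis) of each gene in the 4 member classes (coloured) and in marker and pathway lists (grey); filled points passed the test and bars are medians. The median was 2.14 for macrophage members, beside 2.29 for Kupffer cell markers, 0.50 for dendritic members and -0.75 for endothelial members, beside -0.28 for endothelial markers.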

How the data were processed

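RNA from the livers of 2 control and 3 treated mice was amplified and measured on Affymetrix Mouse Gene ST arrays with 1 colour, each array carrying 1 mouse. The deposited table holds linear, already normalized intensities. The authors checked quality in Expression Console (version 1.1, from the submitters' processing notes) and used Partek Genomics Suite. Of background correction, of the kind of normalization and of summarisation, the method was not given in the sources used here. Labels name Trizol for extraction and the study's methods name RNA Bee.

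Unfiltered log2 intensities, without a pseudocount, were fitted in R 4.3.3 with limma 3.58.1 (lmFit, 1 mean per group, eBayes), with Benjamini-Hochberg adjustment over 35556 rows and a threshold of 0.05. Residual degrees of freedom were 3 and prior degrees of freedom 3.34. With 2 mice against 3 no exact permutation test can reach the threshold, and so few arrays limit the precision. The platform annotation gave 1 gene symbol for 21218 rows, several for 1881 and none for 12457. The brightest row stood for a gene; 1 member, *Clec4g*, had 2 rows, and no member lay on a row of several symbols. Levels of different rows were used to choose the brightest row and to name genes dim or bright. They were also added up in the summed intensities, where bright rows weigh most.

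Members, classes and the lists of macrophage, Kupffer cell, monocyte, neutrophil, dendritic cell, endothelial, platelet, natural killer cell, B cell and stellate cell markers, secreted liver proteins, lectin signalling, complement, ligands and other lectin domain genes were chosen with earlier results of these data known. Named were all called members, all dendritic and endothelial members, the lowest p in each class, bright members (mean log2 of at least 7) that did not pass, and the 4 largest called changes of each list, and further genes were named after their values were seen. Promoter windows came from RefSeq (GRCm38.p6), and pairs were aligned end to end.

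Alternatives were other scalings (quantile, array median, secreted proteins), a filter at log2 of 5, rows with 1 symbol, means of rows, log2(value + 16), array weights (statmod 1.5.0), no moderation, trend with robust moderation, leaving out each mouse and the replicate block. The code of the fit was tested on data simulated from the fit's own model, with independent normal noise. Such data meet its assumptions, so this does not check the calls made here.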

Additional observations from a re-analysis of the deposited data

How the results depend on the processing

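Of the 16 members called, 3 kept their call in all 16 other settings: *Clec4a1*, *Clec4f* and *Clec1b*. *Clec4a3*, *Cd209f*, *Clec4a2*, *Clec12a*, *Clec7a*, *Clec4n*, *Clec4e* and *Clec2i* lost it only without moderation. Replicate numbers were not used to pair samples in the main fit. Deviations of same-numbered samples correlated at -0.07 and -0.25. With only 2 PBS arrays these deviations mirror each other, so the correlations cannot show whether samples were paired. With the replicate block 12 members were higher and 1 lower, with 10 macrophage and 0 dendritic members higher and 0 other members lower, and *Mrc1*, *Cd209a*, *Clec4g* and *Colec11* were among the calls lost. Only CSF1-Fc has a replicate 3, so the block takes up that array and leaves fewer residual degrees of freedom. Log2 fold changes with the block equal those without CSF1-Fc replicate 3, as for *Clec9a* (0.97 in both) and *Cd209a* (0.79 in both). Other causes of these shifts were not tested.

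With each mouse left out in turn, 11 to 16 members were higher and 0 to 3 lower; 9 to 12 macrophage and 0 to 2 dendritic members were higher, 0 to 3 endothelial members were lower, and no other member was lower. Without moderation 3 members were higher (2 macrophage, 0 dendritic, 1 other) and 0 lower, including 0 endothelial and 0 other members. Members lower numbered 5 with quantile normalization, 4 with arrays centred on their median, 1 with arrays centred on secreted proteins, 5 with the filter, 5 on rows with 1 symbol, 1 with means of rows, 4 with log2(value + 16), 1 with trend and robust moderation, and 6 with array weights. Centring on secreted proteins moved the median of all genes by 0.12. Dendritic members higher were 2 with quantile normalization, either centring and the filter, and 3 on rows with 1 symbol and with array weights. Endothelial members lower were 3 with quantile normalization, arrays centred on their median, the filter, rows with 1 symbol and array weights, and 0 with means of rows, where *Clec4g* had -0.39. Other members lower were 2 with quantile normalization, the filter and rows with 1 symbol, 3 with log2(value + 16) and with array weights, and 0 with secreted protein centring and with trend. Signs turned in *Clec2h* (-0.28 with array weights) and *Clec1a* (-0.066 with quantile normalization, -0.050 with array weights, -0.14 with the replicate block). With each mouse left out, *Clec4a4* ranged from -0.045 (without PBS replicate 1) to 0.31 and *Clec1a* from -0.16 (without PBS replicate 2) to 0.17, and *Clec1a* had -0.14 without CSF1-Fc replicate 3. No endothelial member was higher in any setting. Over 30 named members, 127 of 150 values with a mouse left out and 263 of 323 under other settings kept their direction and side of the threshold.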
